A study of Mus musculus with 24 samples.

Results

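The miR-378 family is a set of microRNAs, short RNAs that pair with messenger RNAs and lower their output. Its members here were the 5 mature names mmu-miR-378a-3p, mmu-miR-378a-5p, mmu-miR-378b, mmu-miR-378c and mmu-miR-378d (mmu, for Mus musculus, is left off below), taken by name from the 1907 mature mouse miRNAs in the deposited table of counts. Small RNAs had been sequenced from subcutaneous adipose tissue, the fat under the skin, of mice fed a high-fat diet for 1 day, for 1 week or for 3 weeks, or a control diet for the same times. Each of the 6 groups held 4 libraries, 24 in all. The comparisons ask whether the family differed between the diets and whether it differed between the times. The labels give neither strain, sex nor age, nor whether each library stands for its own animal. The p-values therefore measure the spread between libraries of a group, part of which may be technical.

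miR-378a lies in an intron of Ppargc1b, the gene of PGC-1β, a coactivator of genes for mitochondria and fat oxidation, and host and miRNA can be made from the same transcript. Both arms of its hairpin are used: DICER, the enzyme that the title of the series names, frees them from the precursor, and each arm can be loaded into the silencing complex. In mice, loss of miR-378a is known to raise energy use and to protect against obesity on fatty food, and in adipocytes it has been tied to the making of lipid and to brown fat. It is also abundant in skeletal muscle, where it takes part in differentiation. Little is known of what miR-378b, miR-378c and miR-378d do in mouse fat.

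The mature sequences of miR-378b, miR-378c and miR-378d, which carry the point that a few bases and a shift of the seed separate the minor members, were matched by name in the RefSeq table for GRCm38.p6 and are written with the seed, bases 2 to 8, in capitals.
miR-378b: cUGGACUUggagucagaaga
miR-378c: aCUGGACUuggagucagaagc
miR-378d: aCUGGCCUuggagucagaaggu
All 3 hold the same run of 14 bases, CUUGGAGUCAGAAG. Counted from 1 at the 5′ end of miR-378c, miR-378d differed by A6C, inside the seed, and by C21G, so that 19 of the 21 bases compared were identical. miR-378b starts 1 base later in this alignment, and its only difference over 20 bases, at the last one, was C21A in the positions of miR-378c. The shift by 1 base gives miR-378b another seed than miR-378c.

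The hairpins of these members show where the mature RNA, in capitals, sits in each precursor.
miR-378b hairpin: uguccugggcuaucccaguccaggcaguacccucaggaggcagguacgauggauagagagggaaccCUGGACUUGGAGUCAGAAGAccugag
miR-378c hairpin: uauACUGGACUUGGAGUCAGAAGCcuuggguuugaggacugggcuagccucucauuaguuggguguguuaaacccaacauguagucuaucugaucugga
miR-378d hairpin: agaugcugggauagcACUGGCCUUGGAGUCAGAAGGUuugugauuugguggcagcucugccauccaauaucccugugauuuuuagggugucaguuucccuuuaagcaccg
The mature RNA occupied bases 67 to 86 of the 92 in the miR-378b precursor, near its 3′ end. In the others it lay near the 5′ end, at bases 4 to 24 of 99 in miR-378c and bases 16 to 37 of 110 in miR-378d. On GRCm38, the assembly also called mm10, the miR-378b hairpin is at chr11:88352773-88352864 on the plus strand, in an intron of Msi2, a gene on the opposite strand. The miR-378c hairpin is at chr14:46954830-46954928 on the minus strand, in an intron of Samd4, which is also on the opposite strand. The miR-378d hairpin is at chr10:126710282-126710391 on the minus strand, outside annotated genes.

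Mir378a, the gene of both miR-378a arms, is the one family gene in an intron of a host on its own strand, Ppargc1b. It overlaps Gm25301, a miRNA gene annotated on the other strand. How reads that match several members, or overlapping genes, were assigned is not given in the sources used here, so the split of counts among the near-identical members is uncertain.

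The libraries held 1.99 to 16.3 M (mega) miRNA counts, with a median of 5.30 M, and the high-fat libraries were shallower than the control libraries at day 1, with 1.99 to 5.28 M against 5.36 to 11.3 M, and at week 1, with 2.54 to 4.15 M against 5.32 to 16.3 M. At week 3 the totals overlapped, at 3.11 to 11.97 M on the high-fat diet and 4.86 to 7.10 M on the control diet. Of the 558 miRNAs that passed the filter on low counts, all 5 members were among them. Levels are given as CPM, counts for each 1 M in the library, after scaling by the trimmed mean of M-values. They compare a name between libraries, but between names they also carry differences in ligation and mapping.

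The family took 0.977 to 2.90% of the counts of a library, with a median of 1.63%, and miR-378a-3p made up 97.8% of the family's counts. It ranked 12 among the tested miRNAs by mean CPM, and ranged from 9689 to 25003 CPM with a median of 16009 CPM. Relative to its count in the same library, miR-378a-5p held 0.885 to 2.41%, with a median of 1.53%. The other members were scarcer. The count of miR-378b was 0.125 to 0.386% of that of miR-378a-3p, with a median of 0.218%, and the count of miR-378c was 0.0975 to 0.417%, with a median of 0.215%. For miR-378d the share was 0.00737 to 0.0210%, with a median of 0.0140%.

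These shares set how well each member could be measured. miR-378a-3p had at least 26654 counts in every library and miR-378a-5p at least 281. The lowest counts were 62 for miR-378b, 26 for miR-378c and 3 for miR-378d. The 2 libraries with 3 counts of miR-378d were replicate 4 of high-fat day 1 and replicate 4 of high-fat week 1, where the exact 95% Poisson interval ran from 0.619 to 8.77 counts; such intervals cover counting error only. Between libraries of the same group the SD on the log2 scale was 0.34 for miR-378a-3p, 0.49 for miR-378a-5p, 0.69 for miR-378b, 0.75 for miR-378c and 0.44 for miR-378d, against a median of 0.43 over the 558 miRNAs. The log2 values had a prior count of 2 added, which damps the spread of scarce names. The SD of miR-378d is therefore not on a par with the others.

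At day 1 the level of miR-378a-3p was 15478, 14780.2, 12884 and 15664 CPM in the high-fat libraries, against 13656, 13640.2, 14286 and 16922 CPM in the control libraries. The groups overlapped and their means, 14702 ± 1270.25 and 14626 ± 1560.1 CPM (SD, n = 4 each), were close. At week 1 it was 9689, 25003, 18575 and 11297 CPM on the high-fat diet, against 19843, 17593, 15803 and 24695 CPM on the control diet. The high-fat group at week 1 held both the lowest and the highest value of all 24 libraries. At week 3 it was 16216, 16845, 9839 and 17072 CPM on the high-fat diet, against 20034, 16759, 13957.5 and 16599 CPM on the control diet. One high-fat library, replicate 3, lay below all the others of that time.

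The other arm, miR-378a-5p, had 214, 219.6, 153 and 139 CPM in the high-fat libraries of day 1, against 195, 181, 148 and 214 CPM in the control libraries. Its week 1 values were 154, 482, 439 and 179 CPM on the high-fat diet, against 239, 269.9, 338 and 468 CPM on the control diet. Within the high-fat group the same 2 libraries, replicates 2 and 3, were high for both arms. At week 3 the values were 187, 275, 237 and 315 CPM on the high-fat diet, against 467, 257, 299 and 193 CPM on the control diet. The ranges of the diets overlapped at each time.

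**Figure D1:**
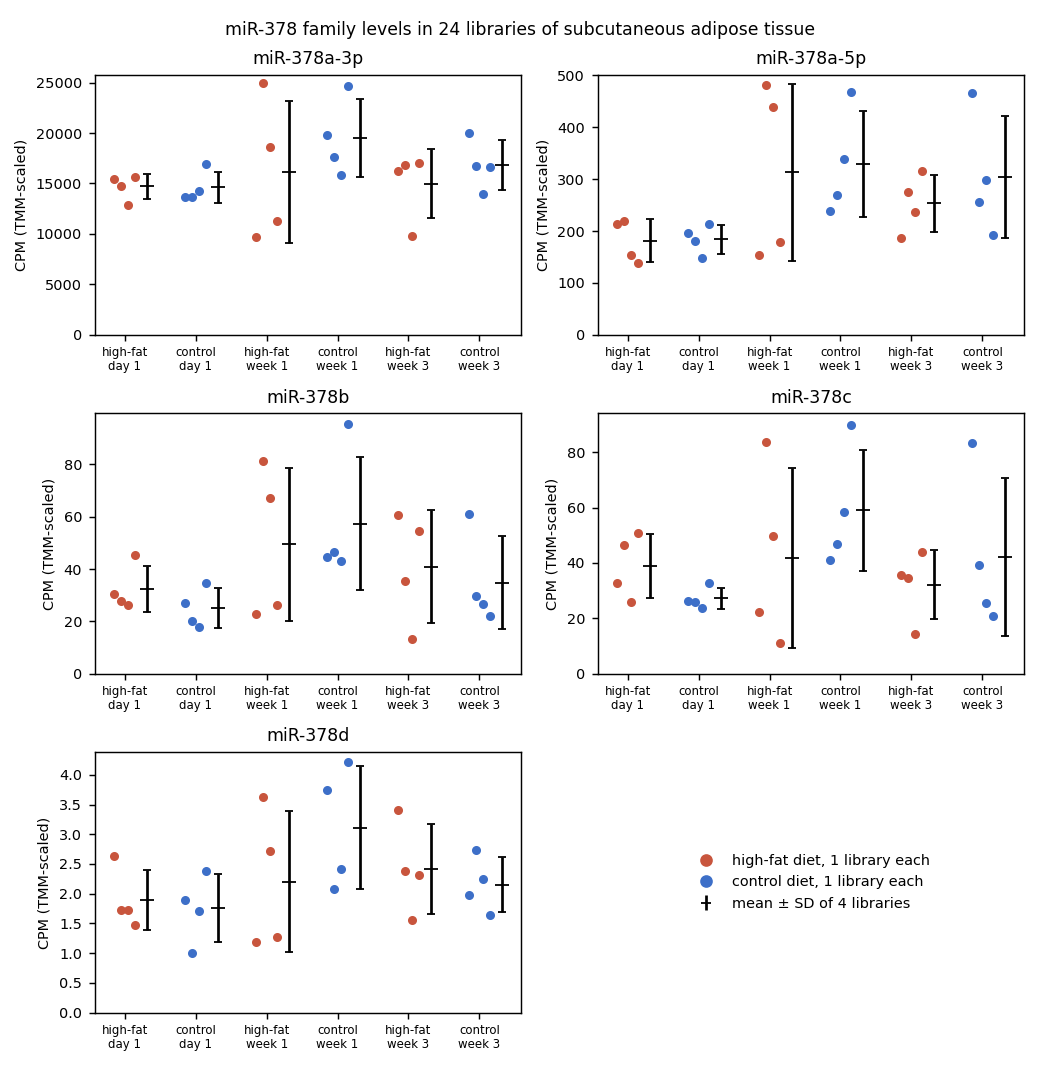
Levels of the 5 members in CPM (linear axes from 0) in the 6 groups, with a point for each library and the mean ± SD of 4 libraries beside them. The high-fat and control libraries overlap at each time for every member, and the high-fat week 1 libraries of miR-378a-3p spread from 9689 to 25003 CPM.

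The minor members followed the same libraries. At week 1 miR-378b was at 22.9, 81.3, 67.2 and 26.3 CPM on the high-fat diet, against 44.7, 46.4, 43.0 and 95.4 CPM on the control diet. For miR-378c the week 1 values were 22.4, 83.8, 49.8 and 11.02 CPM on the high-fat diet, against 41.0, 46.7, 58.4 and 90.0 CPM on the control diet. In both, replicates 2 and 3 stood high in the high-fat group and replicate 4 in the control group. miR-378d was at 1.18, 3.63, 2.72 and 1.27 CPM on the high-fat diet, against 3.74, 2.07, 2.41 and 4.22 CPM on the control diet. Its lowest value there, 1.18 CPM, is above the 0.707 CPM that 3 counts amount to in that library. The 1.27 CPM in replicate 4 of the high-fat group, however, is itself only 3 counts.

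At day 1 and at week 3 the diets overlapped as well. At day 1 miR-378b ranged from 26.2 to 45.4 CPM on the high-fat diet, against 17.9 to 34.8 CPM on the control diet, and miR-378c from 25.8 to 50.8 CPM, against 23.8 to 32.8 CPM. At week 3 miR-378b ranged from 13.2 to 60.6 CPM on the high-fat diet, against 21.99 to 61.0 CPM on the control diet, and miR-378c from 14.5 to 44.1 CPM, against 20.9 to 83.5 CPM. miR-378d averaged 1.89 ± 0.506 CPM in the high-fat libraries of day 1, against 1.75 ± 0.573 CPM in the control libraries, and 2.42 ± 0.761 CPM on the high-fat diet at week 3, against 2.15 ± 0.461 CPM on the control diet (SD, n = 4 each).

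Ordered by their means, all 5 members were highest in control week 1. miR-378a-3p was at 19484 ± 3847 CPM there, followed by control week 3 with 16837 ± 2488 CPM, high-fat week 1 with 16141 ± 7060.43 CPM, high-fat week 3 with 14993 ± 3455 CPM, high-fat day 1 and control day 1. No neighbours in that order differed by more than the larger of their SDs. The order for miR-378a-5p was control week 1 with 329 ± 102 CPM, high-fat week 1 with 314 ± 171 CPM, control week 3 with 304 ± 117 CPM, high-fat week 3 with 254 ± 54.8 CPM, control day 1 with 185 ± 28.0 CPM and high-fat day 1 with 181 ± 41.4 CPM. The step between high-fat week 3 and control day 1 exceeded the larger SD, though the ranges overlapped, and no other step of any member did.

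The high-fat diet moved no member past the threshold at any time. In the quasi-likelihood test of edgeR with Benjamini-Hochberg adjustment over the 558 miRNAs, 0 of the 5 members had an adjusted p under 0.05 at day 1, at week 1 or at week 3, with 0% of all miRNAs called in each. The 0% at week 1 depended on the fit: voom with sample quality weights called 3.41% of all miRNAs there, edgeR without the 3 muscle-rich libraries described below 5.53%, and edgeR without replicate 4 of control week 1 3.89%, with 0 members among those called in each. Without adjustment, 0 of the 5 had a p under 0.05 at day 1, where 3.05% of all miRNAs did, 0 at week 1, against 14.2%, and 0 at week 3, against 1.79%. For every member the 2 diets overlapped at each time. The share of all miRNAs whose groups did not overlap was 0.538% higher and 1.25% lower at day 1, 0.896% higher and 1.97% lower at week 1, and 0.358% higher and 0.717% lower at week 3.

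Averaged over the 3 times, the high-fat to control ratio of miR-378a-3p was 0.905-fold, with a 95% interval from 0.748-fold to 1.09-fold, a log2 fold change of −0.14 with an SE of 0.13. Its adjusted p was 0.993 in the edgeR test. The ratio was 0.921-fold for miR-378a-5p, with an interval from 0.704-fold to 1.21-fold, and 1.09-fold for miR-378b, from 0.754-fold to 1.58-fold. For miR-378c it was 0.915-fold, from 0.615-fold to 1.36-fold, and for miR-378d 0.958-fold, from 0.699-fold to 1.31-fold. Their adjusted p was 0.993 in each case; 0% of all miRNAs were called in this comparison, and 3.23% had an unadjusted p under 0.05. The intervals bound a mean diet effect on miR-378a-3p more tightly than on the minor members.

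Time by time, the log2 fold changes of high-fat over control for miR-378a-3p were 0.0074 with an SE of 0.23 at day 1, −0.27 with an SE of 0.23 at week 1 and −0.17 with an SE of 0.23 at week 3. Those of miR-378a-5p were −0.03, −0.07 and −0.26 in the same order, with an SE of 0.32 at each time. miR-378b was at 0.36, −0.21 and 0.23, miR-378c at 0.51, −0.49 and −0.40, and miR-378d at 0.16, −0.46 and 0.11. At week 1 all 5 estimates were below 0, as were 51.4% of all, with a median of −0.27 against a median of −0.019 over all miRNAs. Each of them had a 95% interval that spanned 0. These values hung on single libraries: without replicate 2 of high-fat week 1, miR-378a-3p was at −0.54 with an unadjusted edgeR p of 0.0211 and an adjusted p of 0.225, and miR-378c at −1.06 with an unadjusted p of 0.0427 and an adjusted p of 0.278, while without replicate 1 of that group miR-378a-3p was at −0.020. A test of all times together for a change in the diet effect gave p from 0.285 for miR-378c to 0.862 for miR-378a-5p, and adjusted p from 0.687 to 0.973 in the edgeR fit. None of the members was called, with 0% of all miRNAs called there.

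**Figure D2:**
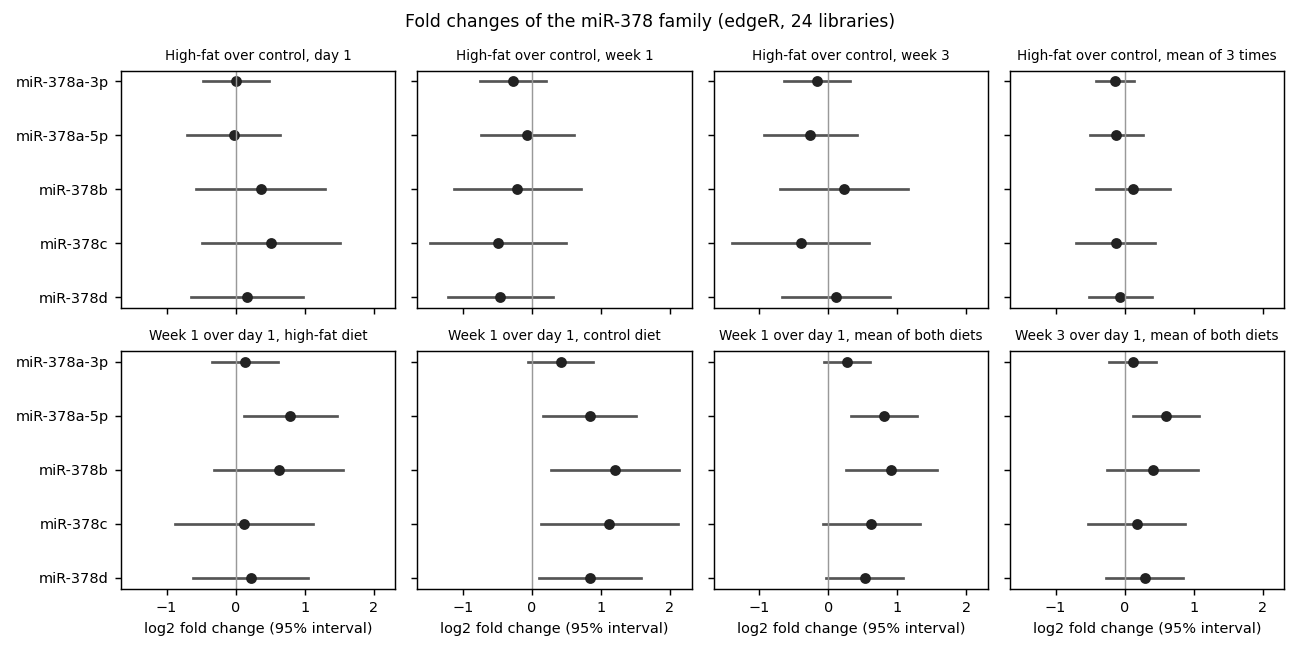
Log2 fold changes of the 5 members in 8 comparisons of the edgeR fit to 24 libraries. Points are the estimates, and lines are 95% intervals derived from the test statistics of that fit. In the upper row, high-fat over control, every interval spans 0; in the lower row, later over earlier, the points lie above 0, and miR-378a-5p at week 1 over day 1 in the mean of both diets is at 0.81.

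Between day 1 and week 1 the estimates for the family were above 0 on both diets, but none passed the adjusted threshold. In the control libraries miR-378a-5p had 239 to 468 CPM at week 1, against 148 to 214 CPM at day 1, without overlap. miR-378b had 43.0 to 95.4 CPM at week 1, against 17.9 to 34.8 CPM at day 1, and miR-378c 41.0 to 90.0 CPM, against 23.8 to 32.8 CPM. So for 3 of the 5 members every control library of week 1 lay above every one of day 1, as was the case for 4.84% of all miRNAs. The members varied together between libraries, and near-identical names can share reads. Counts of members therefore do not stand for independent miRNAs. The log2 fold changes were 0.83 with an SE of 0.33 for miR-378a-5p, 1.20 with an SE of 0.45 for miR-378b, 1.12 with an SE of 0.48 for miR-378c, 0.84 with an SE of 0.36 for miR-378d and 0.41 with an SE of 0.23 for miR-378a-3p. The adjusted p from edgeR ran from 0.295 to 0.423, while 4 of the 5 had an unadjusted p under 0.05, against 13.6% of all miRNAs and 0.179% past the adjusted threshold. Without replicate 4 of control week 1 the values were 0.54 for miR-378a-5p, 0.76 for miR-378b, 0.77 for miR-378c, 0.55 for miR-378d and 0.21 for miR-378a-3p, and 0 of the 5 had an unadjusted edgeR p under 0.05.

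On the high-fat diet the estimates for the same step were lower for each member, a difference that was tested only within the test of all times together, and all ranges overlapped. The log2 fold change of week 1 over day 1 was 0.79 with an SE of 0.33 for miR-378a-5p, close to the control value, 0.62 with an SE of 0.45 for miR-378b, 0.22 with an SE of 0.40 for miR-378d, 0.13 with an SE of 0.23 for miR-378a-3p and 0.12 with an SE of 0.48 for miR-378c. None was called by edgeR, with adjusted p from 0.178 to 0.911 and 0% of all miRNAs called. One member, miR-378a-5p, had an unadjusted p under 0.05, as did 20.6% of all miRNAs. Non-overlap in the higher direction was seen for 0 members and for 3.41% of all miRNAs.

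Averaged over both diets, miR-378a-5p came nearest to the threshold. It was at 1.76-fold at week 1 over day 1, with a 95% interval from 1.26-fold to 2.45-fold, a log2 fold change of 0.81 with an SE of 0.23 and an adjusted p of 0.0561 by edgeR, ranking 18 of the 558 miRNAs by p. miR-378b followed with 1.88-fold, an interval from 1.19-fold to 2.97-fold and an adjusted p of 0.112. The major arm, miR-378a-3p, was at 1.21-fold with an interval from 0.958-fold to 1.53-fold and an adjusted p of 0.349. In this comparison 0.896% of all miRNAs passed the adjusted threshold, and 2 of the 5 members had an unadjusted p under 0.05, against 21.1% of all. The median log2 fold change was 0.62 over the 5 members and 0.08 over all miRNAs. DESeq2, a second count test, called miR-378a-5p with a log2 fold change of 0.78 and an adjusted p of 0.0297, and it called 6.63% of all miRNAs. So did edgeR without replicate 1 of high-fat week 1, with an adjusted p of 0.0387 and 2.1% of all called. Without replicate 2 of that group miR-378a-3p was at 0.067 on the log2 scale. Over the alternatives that kept all replicates or dropped the muscle-rich libraries described next, the adjusted p of miR-378a-5p ranged from 0.0297 to 0.627.

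At week 3 over day 1, in the mean of both diets, miR-378a-5p was at 1.52-fold with an interval from 1.09-fold to 2.11-fold and an adjusted p of 0.0936 by edgeR. The other members were between 1.08-fold for miR-378a-3p and 1.33-fold for miR-378b, with adjusted p from 0.434 to 0.772. None of the 5 passed, against 7.17% of all miRNAs. One member had an unadjusted p under 0.05, against 28% of all. In a fit to the day 1 and week 3 libraries alone miR-378a-5p passed, with a log2 fold change of 0.59 and an adjusted p of 0.0460, in a fit that called 10.3% of all miRNAs. That p is the lowest over its alternatives, which ranged from 0.0460 to 0.785. The remaining comparisons, week 3 against day 1 and against week 1 within each diet, also called 0 of the 5 members. Of all miRNAs they called 0% at week 3 over day 1 on the high-fat diet, 0.358% on the control diet, and 0% at week 3 over week 1 on either diet.

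Skeletal muscle miRNAs moved with the same libraries. miR-378 is abundant in muscle, so the mean log2 CPM of 6 muscle miRNAs (miR-1a-3p, miR-133a-3p, miR-133a-5p, miR-133b-3p, miR-206-3p and miR-499-5p, which mark striated muscle; miR-208b-3p, the other one listed, did not pass the filter) was set beside the family. This mean ranged from 1.26 to 7.29 in high-fat day 1, from 3.61 to 7.38 in control day 1, from 3.53 to 11.2 in high-fat week 1, from 5.18 to 9.85 in control week 1, from 6.29 to 9.78 in high-fat week 3 and from 5.70 to 9.70 in control week 3. miR-1a-3p alone ran from 13.1 to 65024 CPM across the libraries. At week 1 over day 1, in the mean of both diets, the median log2 fold change of the 6 was 2.91, against 0.08 over all miRNAs, with all 6 above 0 and 0 past the adjusted threshold.

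The libraries highest in the muscle mean were replicate 2 of high-fat week 1, replicate 4 of control week 1 and replicate 4 of high-fat week 3. The first 2 of these were also the highest of all 24 libraries in miR-378a-3p, miR-378a-5p, miR-378b, miR-378c and, for control week 1, miR-378d. Of the 3, the last had a muscle mean of 9.78, and replicate 1 of control week 3, at 9.70, was not among them. That library, with 467 CPM of miR-378a-5p and 83.5 CPM of miR-378c, therefore stayed in when the 3 were left out. As deviations from the group means over 24 libraries, with both values of a point from 1 library and so from 1 preparation and depth, the muscle mean and miR-378a-3p had a Pearson r of 0.58, and 0.37 over the 21 libraries without those 3. For miR-378a-5p r was 0.66, and 0.52 without them. It was 0.66 for miR-378b, 0.71 for miR-378c and 0.49 for miR-378d. Without the same libraries these were 0.54, 0.58 and 0.32 in that order. In bulk tissue fewer cells of a type and less of an RNA per cell cannot be told apart.

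**Figure D3:**
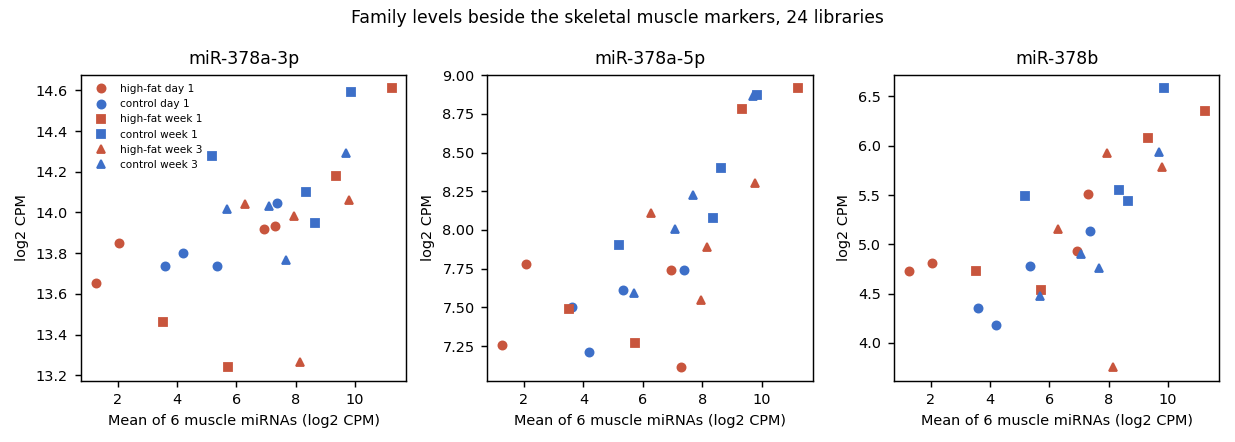
Levels of miR-378a-3p, miR-378a-5p and miR-378b in log2 CPM against the mean log2 CPM of 6 skeletal muscle miRNAs, with a symbol for each of the 24 libraries, coloured by diet and shaped by time. Replicate 2 of high-fat week 1, at a muscle mean of 11.2, and replicate 4 of control week 1, at 9.85, hold the highest levels of miR-378a-3p.

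With the muscle mean as a covariate, the log2 fold change of miR-378a-5p at week 1 over day 1 was 0.29, with an adjusted p of 0.627, and that of miR-378a-3p was −0.0089. Without the 3 muscle-rich libraries the values were 0.57 for miR-378a-5p, with an adjusted p of 0.166, and 0.06 for miR-378a-3p. On the high-fat diet alone, at week 1 over day 1, the covariate put the other members below 0, at −0.94 for miR-378c, −0.22 for miR-378d, −0.20 for miR-378a-3p and −0.18 for miR-378b. At week 3 over day 1 the covariate gave 0.13 for miR-378a-5p, with an adjusted p of 0.785, while leaving out the 3 libraries gave 0.55. Mean diet effects on miR-378a-3p were −0.14 with the covariate and −0.22 without the 3 libraries.

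Ratios within a library do not depend on its scaling. The counts of miR-378a-3p were 72.4, 67.3, 84.1 and 113 times those of miR-378a-5p in the high-fat libraries of day 1, against 69.9, 75.3, 96.6 and 79.1 times in the control libraries. At week 1 the ratio was 62.8, 51.9, 42.3 and 62.9 on the high-fat diet, against 82.9, 65.2, 46.7 and 52.7 on the control diet. At week 3 it was 86.8, 61.2, 41.5 and 54.1 on the high-fat diet, against 42.9, 65.2, 46.7 and 86.1 on the control diet. The 3p arm thus outnumbered the 5p arm in each of the 24 libraries, and all 4 high-fat libraries of week 1 lay below all 4 of day 1. On the control diet the same step overlapped, at 46.7 to 82.9 against 69.9 to 96.6. Week 3 and day 1 overlapped on either diet. How many arm pairs of other miRNAs are set apart in this way was not tested.

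The log2 ratio of the arms did not pass the threshold between the diets. The difference of high-fat minus control was 0.05 at day 1, where an exact permutation test (two-sided) gave a p of 0.8. For week 1 it was −0.15 and for week 3 0.021, for which the exact permutation p was 0.543 and 0.971; 4 libraries against 4 cannot give less than 0.0286. Between the times the ratio averaged 5.84 on the log2 scale at week 1, against 6.34 at day 1, a difference of −0.50 over both diets with an exact permutation p of 0.00449, regrouping libraries within diet. Adjusted over the 24 ratio tests this was 0.0539. At week 3 it averaged 5.87, against 6.34 at day 1, a difference of −0.47 with an exact permutation p of 0.0220 and an adjusted p of 0.171. The comparisons between times were added after the data had been seen. Without the 3 muscle-rich libraries the differences were −0.46 and −0.45.

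The count of miR-378b relative to miR-378a-3p gave a difference between week 1 and day 1 of 0.58 on the log2 scale, with means of −8.46 at week 1 and −9.04 at day 1, an exact permutation p of 0.00367 and an adjusted p of 0.0539. Without the 3 muscle-rich libraries it was 0.47. At day 1 the log2 ratio of miR-378c to miR-378a-3p averaged −8.60 ± 0.37 on the high-fat diet, against −9.07 ± 0.10 on the control diet (SD, n = 4 each). This difference of 0.47 had the smallest exact permutation p that 4 against 4 allow, 0.0286, and an adjusted p of 0.171; it was −0.46 at week 1 and −0.10 at week 3. For miR-378d relative to miR-378a-3p the adjusted p ran from 0.677 to 0.847. None of the 24 ratio tests passed an adjusted p of 0.05.

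**Figure D4:**
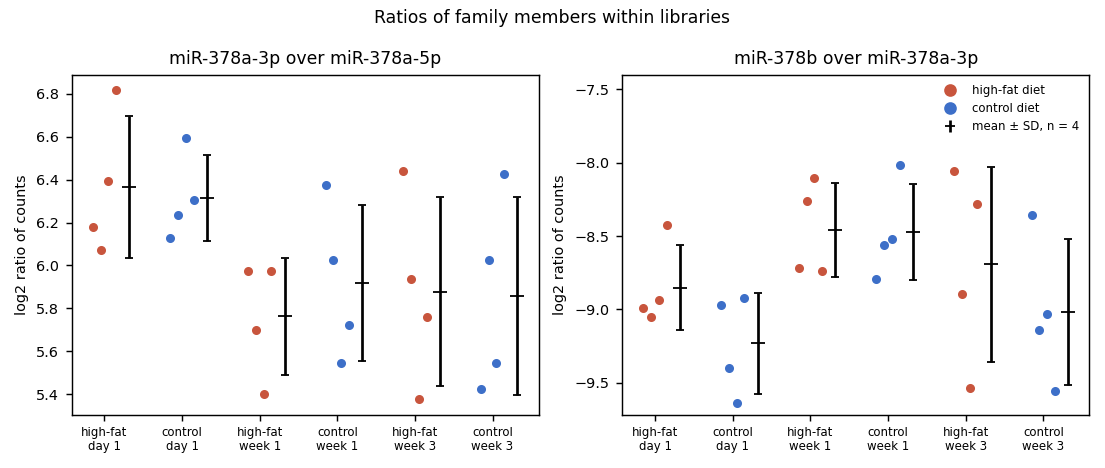
Log2 ratios of counts within each library, miR-378a-3p over miR-378a-5p on the left and miR-378b over miR-378a-3p on the right, by group, with the mean ± SD of 4 libraries. The arm ratio averages 6.37 in high-fat day 1 and 6.32 in control day 1, and between 5.76 and 5.92 in the 4 later groups.

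Among the other 557 miRNAs, the minor members miR-378b, miR-378c and miR-378d were the most like miR-378a-3p by Pearson r. Likeness was the Pearson r of deviations from the group means of log2 CPM over 24 libraries, whose points share library and depth. It was 0.87 for miR-378b, 0.83 for miR-378c and 0.76 for miR-378d, the first 3 in rank, although counts of near-identical members can share reads. The 5p arm of the same hairpin followed at rank 15 with an r of 0.69. Across all 557 the median r was −0.05, and 11% had an r over 0.5.

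Between the minor members and the 5p arm came miRNAs of other genes. miR-136-3p had an r of 0.74, miR-127-5p of 0.73, miR-299a-5p of 0.71 and miR-541-5p of 0.70; these 4 come from the imprinted Dlk1-Dio3 region. miR-486a-5p, from an intron of Ank1 and known from red blood cells and muscle, had an r of 0.72. The 6 muscle miRNAs lay between 0.50 for miR-499-5p and 0.57 for miR-1a-3p. Without the 3 muscle-rich libraries miR-378b still led with an r of 0.85 and miR-378c followed with 0.72. There miR-541-5p, with 0.69 at rank 5, stood above miR-378d, with 0.66 at rank 6, while miR-136-3p had 0.51 and miR-499-5p 0.07. By Spearman's rho over the 24 libraries miR-378d was at rank 9 and miR-541-5p at rank 3. At the other end were miR-141-3p with −0.71, miR-205-3p with −0.65 and miR-31-5p with −0.65. The first 2 are known as epithelial miRNAs. For miR-378a-5p, 66 of the 557 had an r over 0.5, and the highest was 0.83.

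**Figure D5:**
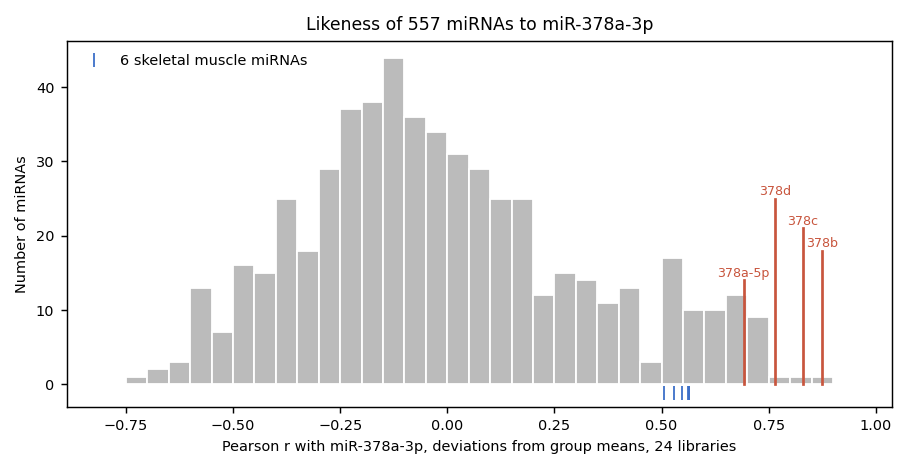
Number of miRNAs by their Pearson r with miR-378a-3p (deviations from group means of log2 CPM, 24 libraries), with red lines for the other 4 family members and blue ticks for 6 skeletal muscle miRNAs. miR-378b, miR-378c and miR-378d are the 3 highest of the 557, at 0.87, 0.83 and 0.76.

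Lists of miRNAs tied to fat biology gave the setting in which the family was measured. Of the 6 adipocyte-enriched miRNAs, 0 passed in the mean diet comparison, with a median log2 fold change of −0.05 against −0.04 over all miRNAs, and miR-378a-3p was at −0.14 there. The most abundant of them, miR-148a-3p, had 106908 to 266653 CPM, so an adipocyte-enriched miRNA was abundant in each library. At week 3 over day 1 the list had a median of 0.27, against 0.05 over all miRNAs, with 4 of 6 above 0. One of the 6 passed, against 7.17% of all, and it went the other way: miR-26b-5p fell by 0.68 on the log2 scale with an SE of 0.17 and an adjusted p of 0.0209 by edgeR. Taken singly over the 24 libraries, the 6 had an r with miR-378a-3p from −0.36 for miR-210-3p to −0.07 for miR-148a-3p. Their mean had an r of −0.52 with miR-378a-3p, and −0.11 without the 3 muscle-rich libraries. With miR-378a-5p it was −0.66, and −0.51 without them. For miR-378b it was −0.46, for miR-378c −0.62 and for miR-378d −0.32. Without the muscle-rich libraries these were −0.20, −0.37 and 0.03 in the same order. Of the 5 tested miRNAs of brown and beige adipocytes, 0 passed in the diet or the time comparisons given here, and miR-455-5p, the most abundant, was at −0.11 in the mean diet comparison. This list's mean had an r of −0.30 with miR-378a-3p over 24 libraries, and 0.09 without the 3 muscle-rich ones.

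Like miR-378a, 7 other tested miRNAs lie in introns of metabolic or muscle genes, among them miR-33 of Srebf2 and miR-103 and miR-107 of the Pank genes. None passed in the diet comparisons, and their median log2 fold change in the mean diet comparison was −0.07. One of the 7 passed at week 3 over day 1, where 7.17% of all did: miR-335-3p, from an intron of Mest, a gene tied to the growth of fat tissue in mice, rose by 1.58 on the log2 scale with an SE of 0.39 and an adjusted p of 0.0196 by edgeR. In the same comparison miR-378a-3p was at 0.12 and miR-378a-5p at 0.60, and the median of the 7 was 0.32, against 0.05 over all miRNAs. miR-103-3p, the most abundant of them, was at 0.23.

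Markers of other cells were compared in the same libraries. With miR-378a-3p over 24 libraries, the mean of 6 leukocyte miRNAs had an r of −0.05 and that of 3 red blood cell miRNAs 0.29. Those 3 went apart, with 0.72 for miR-486a-5p, also known from muscle, −0.23 for miR-451a and −0.10 for miR-144-3p. For 3 smooth muscle and pericyte miRNAs the mean's r was −0.28, for the endothelial miRNA tested −0.07 and for 4 epithelial miRNAs −0.58. Without the 3 muscle-rich libraries the epithelial r was −0.37, and Spearman's rho over the 24 libraries was −0.30. At week 1 the leukocyte markers had a median log2 fold change of −1.52 in high-fat over control, with 5 of 6 below 0, and the epithelial markers 0.80, with 4 of 4 above 0; 0 of either list passed. The epithelial mean there ranged from 10.1 to 12.5 on the high-fat diet, against 10.5 to 11.03 on the control diet, and was highest in replicate 1 of the high-fat group, the library lowest in miR-378a-3p. The part of these markers in the diet values of the family at week 1 was not tested.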

How the data were processed

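The authors deposited 1 table of raw counts of reads per mature miRNA name, with 1 column for each of 24 libraries. Per the labels' protocols, total RNA was purified with TRIzol, and a NEBNext kit for small RNA made the libraries. FastQC, Trim Galore, Bowtie2 and featureCounts and the build mm10 are named in the submitters' processing notes; their versions and settings, and how reads matching several places were assigned, were not given in the sources used here. Groups came from the sample titles.

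Of 1907 names, 440 had 0 counts throughout, and filterByExpr (minimum count 10, minimum total 15) kept 558; the 1349 left out held 0.0179% of the counts. A cell-means model of the 6 groups was fitted with edgeR 4.0.16, on the counts of the 24 libraries, in R 4.3.3 (TMM, robust quasi-likelihood test, Benjamini-Hochberg adjusted p under 0.05 over 558 miRNAs), and 13 contrasts were tested. The biological coefficient of variation was 0.359. Of the 36 pairs of libraries within groups, chi-square per degree of freedom was at least 82.2 and none was merged. Log2 CPM used a prior count of 2, and ratios a pseudocount of 0.5 counts with exact permutation tests. The alternatives used DESeq2 1.42.0, limma 3.58.1, other scalings and filters, summed near-identical members, muscle markers and left-out libraries. Scripts were tested on simulated data.

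The named miRNAs were the 5 members, the 8 most and the 3 least like miR-378a-3p, list members past the threshold and up to 3 abundant members of each list. The members and lists were chosen with earlier results of these data known. Mature and hairpin sequences are RefSeq's for GRCm38.p6, and gene positions are from the GENCODE annotation of GRCm38.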

Additional observations from a re-analysis of the deposited data

Results flagged for a closer look

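Of 54 sets of 4 libraries checked, 3 held a library far from the other 3 by Dixon's criterion for 4 values; chance gives about 1 in 20. In high-fat week 3, replicate 3 had 9839 CPM of miR-378a-3p, against 16216 to 17072 CPM in the others of its group. In control week 1, replicate 4 had 95.4 CPM of miR-378b, against 43.0 to 46.4 CPM in the others; its muscle marker mean, 9.85, was the highest of its group. In control day 1, replicate 3 had a log2 ratio of miR-378c to miR-378a-3p of −9.23, against −9.03 to −9.01 in the others.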

How the results depend on the processing

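No diet comparison called a member under any alternative. The count of members called became 1, miR-378a-5p, at week 1 over day 1 (mean of both diets) with DESeq2, which called 6.63% of all miRNAs there, and at week 3 over day 1 when only the groups compared were fitted, which called 10.3%. The cause of these changes was not tested.

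The values that changed sign were these. High-fat over control at day 1, miR-378a-5p was at 0.0097 with RLE size factors, 0.0056 with library totals, 0.018 with a mean CPM of at least 10, 0.0099 with DESeq2, 0.086 with weighted voom, 0.14 with the muscle covariate and 0.019 with only the groups compared, and miR-378a-3p at −0.036 without a filter. At week 1 miR-378a-5p was at 0.013 with library totals, and at week 3 miR-378d at −0.013 with limma-voom. For week 1 over day 1 on the high-fat diet, miR-378c was at −0.16 with voom. Weighted voom gave −0.20 for miR-378d, −0.31 for miR-378c and −0.11 for miR-378a-3p. The muscle covariate gave −0.22 for miR-378d, −0.18 for miR-378b, −0.94 for miR-378c and −0.20 for miR-378a-3p, and leaving out the 3 muscle-rich libraries gave −0.15, −0.46 and −0.15 for miR-378d, miR-378c and miR-378a-3p. In the mean of both diets the covariate gave −0.26 for miR-378c and −0.0089 for miR-378a-3p at week 1, and −0.034 for miR-378d, −0.23 for miR-378b, −0.60 for miR-378c and −0.14 for miR-378a-3p at week 3. Of the 8 miRNAs most like miR-378a-3p, 4 stayed among the top 8 with Spearman correlation and 4 without the muscle-rich libraries.

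Same-numbered libraries were not paired in the main fits. Of the same-number pairs of high-fat and control libraries, 7 of 12 correlated above 0.1, against 13 of 36 others. The median r was 0.28 for the same-number pairs and −0.0036 for the others. These values do not settle whether the numbers mark pairs. A replicate block gave each replicate number the same effect in all 6 groups, and so at every time. It changed no call of a member (miR-378a-5p at week 1 over day 1: 0.80). Such a block does not stand for pairs of libraries within a time. Whether pairs set separately at each time would change a call of a member was not tested. With sign flips of paired differences, the arm ratio at week 3 over day 1 (−0.47) had an exact p of 0.0703 and miR-378c to miR-378a-3p between diets at day 1 (0.47) one of 0.125. Between times the sign flips matched same-numbered libraries of the same diet, a matching that was not checked. Under it, at week 1 over day 1, they gave an exact p of 0.031 for the arm ratio (−0.50). For miR-378b to miR-378a-3p (0.58) the exact sign-flip p there was also 0.031.

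Leaving out each replicate in turn gave these ranges of log2 values. High-fat over control at day 1: miR-378a-3p 0.0030 to 0.11, miR-378a-5p −0.10 to 0.11, miR-378b 0.20 to 0.58, miR-378c 0.39 to 0.68, miR-378d −0.050 to 0.35. At week 1: miR-378a-3p −0.54 to −0.020, miR-378a-5p −0.33 to 0.22, miR-378b −0.54 to 0.21, miR-378c −1.06 to −0.14, miR-378d −0.80 to −0.16, all lowest without replicate 2 of high-fat week 1. At week 3: miR-378a-3p −0.25 to 0.055, miR-378a-5p −0.38 to 0.070, miR-378b 0.025 to 0.71, miR-378c −0.61 to 0.22, miR-378d −0.075 to 0.39. Mean over the times: miR-378a-3p −0.23 to −0.048, miR-378a-5p −0.21 to 0.0076, miR-378b 0.012 to 0.30, miR-378c −0.32 to 0.10, miR-378d −0.17 to 0.055. Week 1 over day 1 on the high-fat diet: miR-378a-3p −0.20 to 0.31, miR-378a-5p 0.46 to 1.01, miR-378b 0.22 to 0.86, miR-378c −0.52 to 0.40, miR-378d −0.19 to 0.45, all lowest without replicate 2 of high-fat week 1. On the control diet: miR-378a-3p 0.21 to 0.44, miR-378a-5p 0.54 to 0.90, miR-378b 0.76 to 1.34, miR-378c 0.77 to 1.20, miR-378d 0.55 to 0.94, all lowest without replicate 4 of control week 1. In the mean of both diets at week 1: miR-378a-3p 0.067 to 0.33, miR-378a-5p 0.61 to 0.88, miR-378b 0.67 to 0.99, miR-378c 0.26 to 0.73, miR-378d 0.28 to 0.60, all lowest without replicate 2 of high-fat week 1, with 0 to 1 members called (1 without replicate 1 of high-fat week 1, where 2.1% of all miRNAs were called). At week 3: miR-378a-3p 0.028 to 0.16, miR-378a-5p 0.41 to 0.63, miR-378b 0.17 to 0.52, miR-378c −0.14 to 0.27, miR-378d 0.13 to 0.36. The arm ratio between diets ranged from −0.10 to 0.15 at day 1, −0.17 to 0.21 at week 3 and −0.090 to 0.036 over the times. The ratio of miR-378b to miR-378a-3p at week 1 ranged from −0.10 to 0.17. For miR-378c to miR-378a-3p the ranges were 0.35 to 0.58 at day 1, with an exact p of up to 0.171, −0.36 to 0.22 at week 3, −0.12 to 0.093 over the times and −0.21 to 0.080 at week 3 over day 1. For miR-378d to miR-378a-3p they were −0.022 to 0.28 at day 1, −0.29 to −0.066 at week 1 and 0.13 to 0.29 at week 1 over day 1. Depth limits miR-378d, with as few as 3 counts.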
